A study of Mus musculus with 35 samples.

Results

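The antigen receptor loci are the 4 long gene clusters from which lymphocytes assemble antibodies and T cell receptors: the immunoglobulin heavy chain locus Igh on chromosome 12, the kappa light chain locus Igk and the T cell receptor beta locus Trb on chromosome 6, and the joint T cell receptor alpha and delta locus Tra/Trd on chromosome 14. Their members here were the peaks of the NELFA ChIP list whose summit, the base of highest enrichment, lay inside one of these loci. There were 837 such peaks among 59485 in all (1.41%): 578 in Igh, 202 in Igk, 17 in Trb and 40 in Tra/Trd. A peak counted as a member by the position of its summit alone.

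In a B or T lymphocyte, 1 variable (V) segment is cut and joined to a joining (J) segment, in some loci with a diversity (D) segment between them, and the joined exon is read together with a constant (C) gene. The recombinase that cuts the DNA, made from Rag1 and Rag2, is a lymphoid enzyme, so in embryonic stem cells these loci are normally unrearranged. NELFA is a subunit of the negative elongation factor, a complex known for holding RNA polymerase II in a paused state shortly after a gene's start, and V segments, each with a small promoter of its own, are repeated in families of closely similar copies.

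The chromatin was that of E14 mouse embryonic stem cells in which doxycycline switches on a transgene for Strep-HA-tagged NELFA, followed by P2A and EGFP. The cells were kept in serum medium with LIF and 2i and treated with doxycycline at 0.4 µg/ml for 16 h. Formaldehyde-fixed, sonicated chromatin was pulled down with antibodies against HA in 4 libraries (3 with the first antibody, 1 with the second) from 3 replicates, next to 3 input libraries. All 7 libraries, inputs included, carried the transgene and received doxycycline, so there was no ChIP from uninduced cells, and peaks that depend on the tagged protein cannot be told apart from peaks that do not. The authors deposited 1 peak list for all of them. It has no value per library, so no spread between replicates can be given, no test between libraries was possible, and read depth is unknown. Of the 35 libraries of the series, the 28 others (20 for RNA-seq, 8 for ATAC-seq) were not used here. E14 cells derive from 129 mice, whereas mm10 and the gene table describe C57BL/6J; these loci differ between strains, and the part this plays in the peaks was not tested.

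Peaks were also looked up at 16 lymphoid genes and 8 stem cell genes. Peaks at a gene are no measure of its RNA, so these lists do not check the cell type. Over all genes outside the loci, 21.2% had a summit in the gene or within 1 kb of it, a share that differs widely between chromosomes. Of the 16 lymphoid genes 2 did, Ebf1 (highest fold 2.04) and Cd4 (1.95), and none was found at Rag1, Rag2 or Pax5. Among the stem cell genes, 5 of 8 had one, Sox2 (2.41), Nanog (2.50), Klf4 (3.13), Esrrb (1.86) and Zfp42 (2.41), and Pou5f1, Tdgf1 and Dppa5a had none. Cd4 and Nanog lie on chromosome 6, which is rich in peaks. Fold here and below is the authors' fold enrichment of a peak. How the input enters it is not given in the sources used here.

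The sequences used here were RefSeq promoter and microRNA tables (GRCm38.p6), without the genome itself, so the bases under most peaks were not read. Of the 27 promoters of the loci in these tables, all of genes other than receptor segments, 1 lay under a peak. The share of promoters under a peak elsewhere was not counted, so this is not read as few or many. That promoter belongs to the long non-coding RNA Gm30948, among the distal V segments of Igh, at chr12:115262401-115262700 on the plus strand. Its peak, at chr12:115262529-115262741, had a fold of 2.50, and the summit lay 12 bp before the gene's start. The sequence is shown because it is the only promoter of these tables in the loci that lay under a peak. The capitals mark the 172 bases that the peak covers.

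Gm30948: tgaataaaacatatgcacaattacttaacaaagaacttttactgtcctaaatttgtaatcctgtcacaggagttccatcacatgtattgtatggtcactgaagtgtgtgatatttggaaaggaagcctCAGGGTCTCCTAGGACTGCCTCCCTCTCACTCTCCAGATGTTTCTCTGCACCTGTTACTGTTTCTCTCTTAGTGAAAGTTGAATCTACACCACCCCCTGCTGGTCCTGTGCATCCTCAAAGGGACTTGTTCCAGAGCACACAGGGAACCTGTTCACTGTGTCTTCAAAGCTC

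Among the other 26 promoters of the loci, 2 were near copies of it, both of long non-coding RNAs further up the Igh locus. The promoter of Gm30996 matched it at 257 of 265 aligned positions (97.0%), and that of Gm40900 at 247 of 262 (94.3%). The longest alignment of any other promoter was 43 positions. Neither copy was under a peak: the nearest peak was 9095 bp from the Gm30996 promoter (fold 2.18) and 9657 bp from the Gm40900 promoter (fold 2.90), and neither gene had a summit inside or within 1 kb. The pair was picked out after the values had been seen. Below are the bases of each copy that align with the stretch under the Gm30948 peak, with bases that differ from it in capitals. The first is at chr12:115407528-115407663 and the second at chr12:115703670-115703840, both on the plus strand.

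Gm30996: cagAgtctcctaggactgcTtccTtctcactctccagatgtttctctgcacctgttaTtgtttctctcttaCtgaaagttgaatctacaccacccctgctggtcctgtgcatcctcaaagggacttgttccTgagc
Gm40900: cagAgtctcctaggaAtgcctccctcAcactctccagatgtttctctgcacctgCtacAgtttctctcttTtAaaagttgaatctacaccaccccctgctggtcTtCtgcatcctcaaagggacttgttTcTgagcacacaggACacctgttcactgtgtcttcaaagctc

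The differing bases number 6 of 136 in the Gm30996 stretch and 13 of 171 in the Gm40900 stretch. Each copy also lacks 1 base of the Gm30948 stretch, a gap that is neither marked nor counted among these. Igh thus holds stretches that are nearly the same at several places, and a short read can match more than 1 of them. Whether reads with several matches were kept is not given in the sources used here, and every one of the 59485 peak names carries the tag MAPQ0, whose meaning is not stated. The part that the placing of such reads plays in the Igh peaks was not tested.

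The same likeness is seen at 2 microRNA genes that lie directly beside Igh V segments. The Mir7094-1 hairpin lies 36 bp above the pseudogene Ighv1-2, and the Mir7094-2 hairpin 12 bp above Ighv1-5, "above" meaning toward higher coordinates, the 5′ side of Igh segments. Their hairpins, from RefSeq on the minus strand at chr12:114469407-114469466 and chr12:114513635-114513694, are the same at 59 of 60 bases. They differ by A5G, counted from 1 at the hairpin's 5′ end with the Mir7094-1 base first, and that base is in capitals.

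Mir7094-1: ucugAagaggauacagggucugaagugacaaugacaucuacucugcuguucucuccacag
Mir7094-2: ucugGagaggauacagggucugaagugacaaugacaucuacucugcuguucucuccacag

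Both give the same mature miR-7094-3p, uACUCUGCuguucucuccaca, with its seed (bases 2 to 8) in capitals. A peak inside Ighv1-5, at chr12:114513500-114513603 with a fold of 1.91, ended 32 bp from the Mir7094-2 hairpin. The peak nearest to Mir7094-1 was 1811 bp away and had the same fold of 1.91. The only other microRNA of the loci, Mir6388, lay 1797 bp from a peak of fold 2.90.

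Igh held far more peaks than the rest of its chromosome, Igk about as many, and both T cell receptor loci fewer than their chromosomes' means. Igh had 210 summits per Mb over 2.75 Mb, against 23.1 on the rest of chromosome 12, a ratio of 9.09 (95% exact binomial interval 8.30 to 9.96). Igk had 63.7 per Mb over 3.17 Mb against 56.5, a ratio of 1.13 (0.976 to 1.30), so its excess lay within counting error. Trb had 25.5 per Mb against 56.8 (ratio 0.449, 0.261 to 0.719), and Tra/Trd 22.3 against 46.6 (0.477, 0.341 to 0.651). These intervals treat peaks as independent and cover counting error only. Peaks clustered, so the true uncertainty is wider.

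The mean of a chromosome is a poor yardstick where peaks crowd into blocks. When each chromosome was divided into windows as long as the locus, none of the 40 windows on chromosome 12 held more summits than Igh. Their median was 33.5 and the fullest held 486, against 578. Igk was exceeded by 14 of 44 windows and Trb by 157 of 217 windows of chromosome 6. For Tra/Trd the order turned round: 8 of 65 windows of chromosome 14 exceeded its 40 summits, and the window median was 19, because the mean is carried by a dense block whose fullest window held 1489. Set against the 5 Mb on either side, Tra/Trd was 1.52 times as dense, not sparser, so its position relative to its surroundings depends on the yardstick. Trb was 0.58 times as dense as the 5 Mb on either side of it and 0.548 times as dense as its median window. It had 1.44 times the density of chromosome 6 once 1 Mb windows of 30 or more peaks were left out of the rest. That cutoff lies below the mean outside Trb (56.8 per Mb), so only sparse windows stayed in the rest (17.75 per Mb). The locus itself was not filtered, so the ratio of 1.44 says little about whether Trb is dense.

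**Figure D1:**
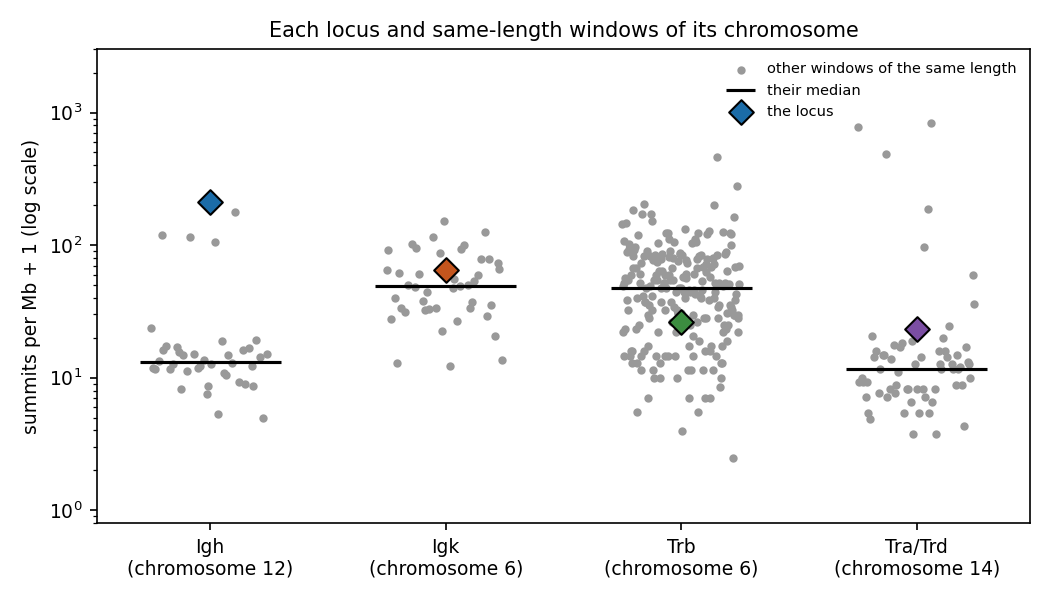
Summits per Mb plus 1, on a log scale, for each locus (diamond) and for every non-overlapping window of the same length on the same chromosome (grey points), with the windows' median as a line. Igh lies above all 40 windows of chromosome 12, Igk and Tra/Trd lie within the range of theirs, and Trb lies below the median of its 217.

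Other clustered gene families gave a scale for these densities. The killer-cell lectin-like receptor cluster Klra on chromosome 6, a repetitive family of natural killer cell receptors, held 442 summits in 1.42 Mb (312 per Mb), and none of 101 windows of its length held more. The T cell receptor gamma locus Trg held 2 summits in 0.174 Mb and the lambda light chain locus Igl 1 in 0.199 Mb, where the median window of the same length on their chromosomes held 1; these loci are too short to be told apart from their chromosomes.

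Peaks covered 7.56% of the bases of Igh, against 0.675% of the rest of chromosome 12. The covered share was 1.72% in Igk (rest 1.21%), 0.396% in Trb (rest 1.22%) and 0.439% in Tra/Trd (rest 1.73%). Igh peaks were also somewhat wider, with a median of 203.5 bp against 177 on the rest of the chromosome, and 34 of them (5.88%, rest 3.71%) reached 1 kb. The widest, at chr12:115820227-115827294, spanned 7068 bp with a fold of 6.08. In Igk 6 peaks (2.97%, rest 2.05%) reached 1 kb. None of the 17 Trb peaks (rest 2.08%) and none of the 40 Tra/Trd peaks (rest 5.95%) did. With so few peaks these absences say little, and the shares for the rest of chromosome 14 mostly describe its dense block. The widest peaks of Trb and Tra/Trd spanned 427 and 807 bp.

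In median fold Igk equalled the rest of its chromosome, Igh was somewhat above and both T cell receptor loci were below. The median fold was 2.27 in Igh (quartiles 2.00 and 2.77) against 2.13 on the rest of chromosome 12. In Igk it was 2.00, equal to the rest of chromosome 6. In Trb it was 1.91 against 2.00, and in Tra/Trd 2.09 against 2.36. The values for the rest of chromosome 14 again mostly describe its dense block. A fold of 3 or more was reached by 105 Igh peaks (18.2%, rest 11.4%), 25 Igk peaks (12.4%, rest 7.13%), no Trb peak (rest 7.27%) and 4 Tra/Trd peaks (10%, rest 26.5%). A fold of 5 or more was reached by 13 of 578 peaks in Igh, against 42 of 2640 on the rest of chromosome 12, and by 5 of 202 in Igk, against 156 of 8096 on the rest of chromosome 6. With so few peaks in Trb and Tra/Trd, the absence of any at that fold there says little. Within the whole list 98.1% of the fold values lay within 0.02 steps of whole multiples of 0.0454, and in Igh 98.1% did, so values between neighbouring steps were hardly ever taken.

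**Figure D2:**
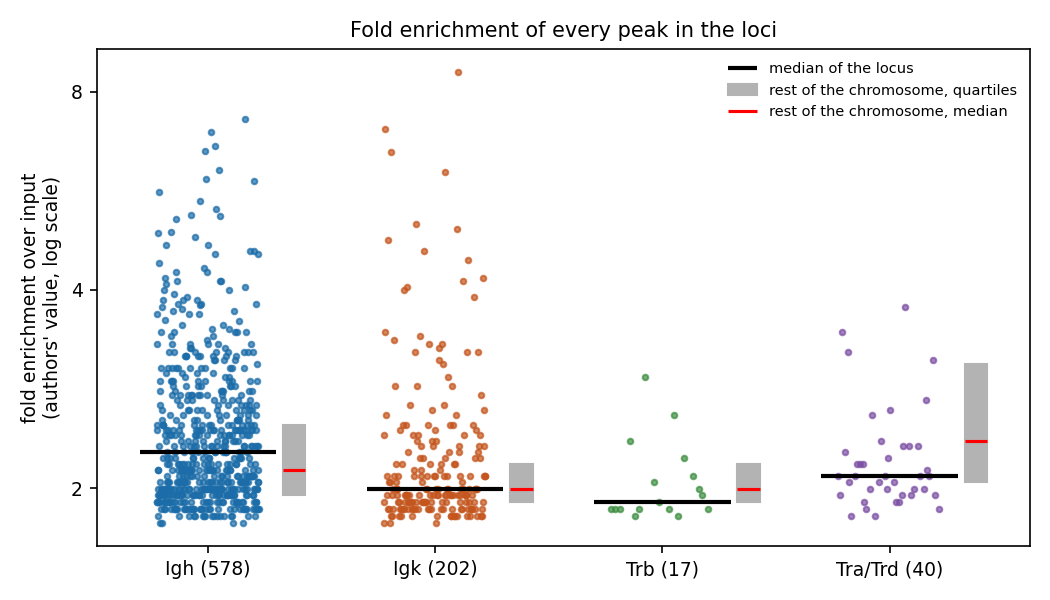
The authors' fold enrichment (log scale) for each of the 837 peaks by locus, with the locus median as a black line, and the quartiles and median of the rest of the chromosome as a grey box and red line. Medians lie between 1.91 and 2.27, and only Igh and Igk have peaks above 5.

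The strongest Igh peaks lay among the distal V segments, with 1 exception among the constant genes. The highest fold, 7.26, was at chr12:115601634-115605593, a peak of 3960 bp whose summit lay 788 bp below Ighv1-67 and whose interval spans that segment. Next came 6.94 at chr12:115067657-115068409, which covers part of Ighv8-5 with its summit 77 bp above it, and 6.63 at chr12:115619283-115621816, 1662 bp below Ighv1-69. The fourth, 6.51 at chr12:113335314-113336774, lay 4952 bp above Ighg1, the constant gene of the IgG1 heavy chain. The fifth was the widest peak, whose summit was 5455 bp above the pseudogene Gm18341. None of these 5 summits fell inside a segment.

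The strongest peak of all 4 loci was in Igk, and it was far from any segment. It had a fold of 8.58 at chr6:69094852-69096569, 14784 bp below the pseudogene Igkv4-77, and a second peak 20617 bp below the same segment had 7.03. Others of the leading 5 were 6.04 (9992 bp below Igkv2-95-1) and 5.04 (14881 bp above Igkv1-117). All 4 of these lay more than 9 kb from the nearest gene.

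In the T cell receptor loci the leading peaks were modest. The top of Tra/Trd was 3.77 at chr14:53111958-53112234, 6787 bp above Trav6n-5, followed by 3.45 (1227 bp below Trav13d-4), 3.22 and 2.72 (5988 and 7860 bp below Trav7d-4) and 3.13 (10995 bp above Trav15-1-dv6-1). The top of Trb was 2.95 at chr6:41243105-41243489, 9880 bp below the pseudogene Gm2719, and another peak of 2.36 lay inside Gm2719. The remaining 3 of the leading Trb peaks had folds of 2.59 (8105 bp below 1700074P13Rik), 2.22 (2264 bp below Trbv21) and 2.09 (3663 bp above Trbv29). All 5 leading Trb peaks and the weakest of the leading Tra/Trd peaks were under 3.

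Within Igh the peaks were spread very unevenly, thin over the constant genes and thick over the distal V segments. The constant genes held 6 summits in 164 kb (36.6 per Mb), and the D and J segments 12 in 98.3 kb (122 per Mb). No summit lay in the 46.1 kb between the last D and the first V segment. The V segments nearer D, before the first member of the Ighv1 or Ighv8 families, held 85 in 806 kb (105 per Mb). From there to the end, 1677 kb with 120 of the 184 V segments held 474 summits (283 per Mb), with 10.9% of its bases under peaks and 12 of the 13 peaks of fold 5 or more. The 500 kb below the locus held 17 summits (34 per Mb) and the 500 kb above it 4 (8 per Mb), next to 23.1 per Mb on the rest of the chromosome.

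**Figure D3:**
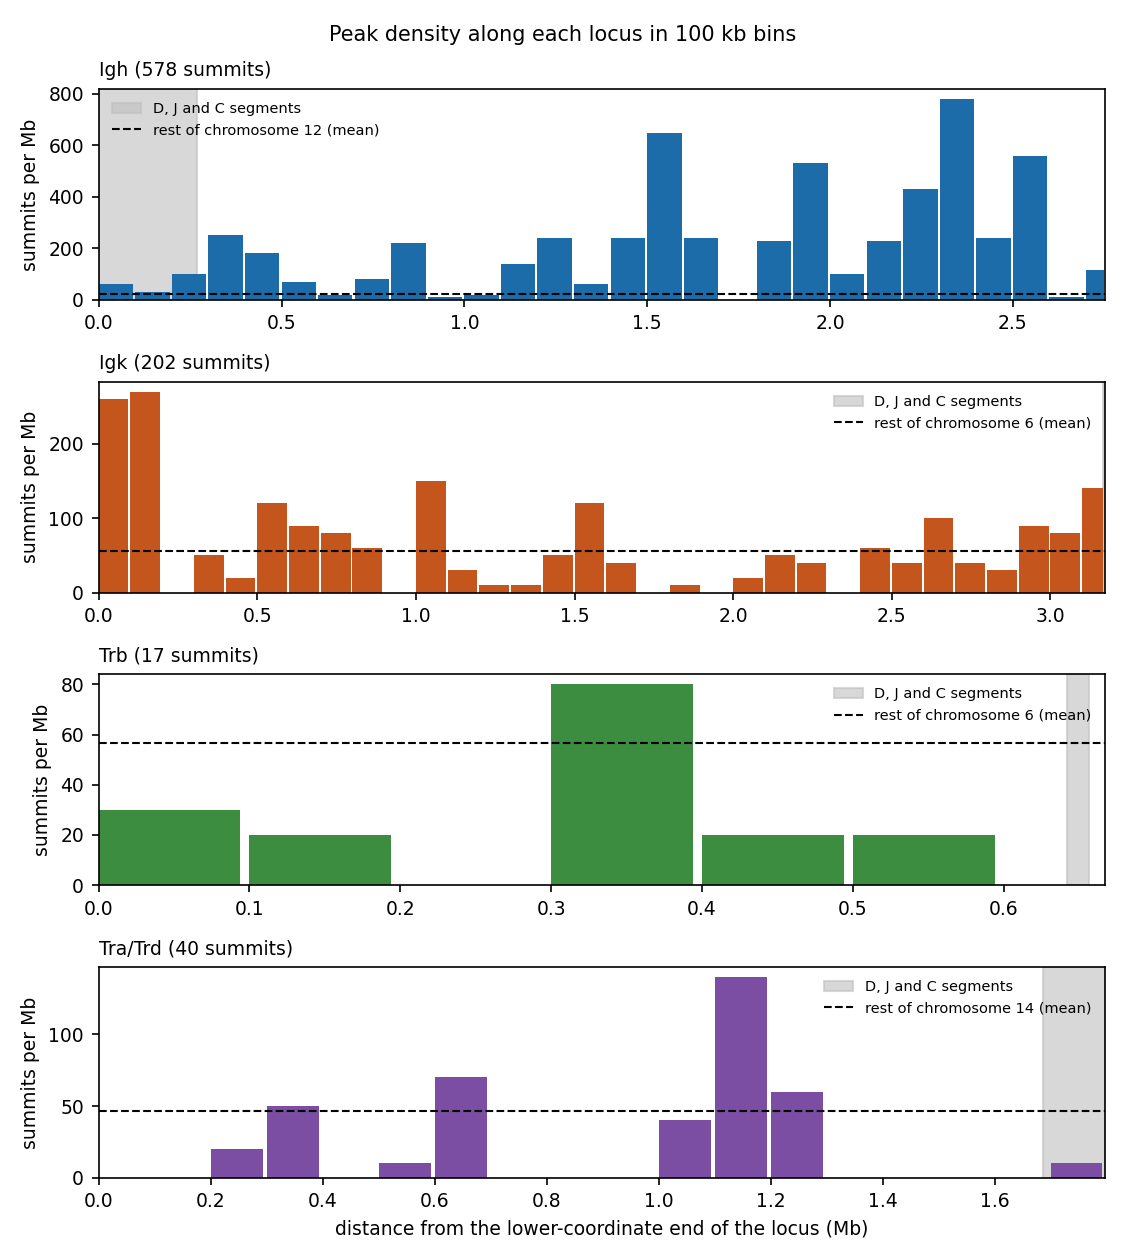
Summits per Mb in 100 kb bins along each locus, against the distance from its lower-coordinate end in Mb. Grey bands mark the D, J and C segments and the dashed line is the mean of the rest of the chromosome; the tallest Igh bin holds 78 summits, and 10 of 18 Tra/Trd bins hold none.

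The fullest 100 kb bin of Igh, starting at chr12:115558768, held 78 summits, and the 3 fullest held 34.4% of the locus's peaks, while 1 of 28 bins was empty. In Igk the 3 fullest bins held 33.7%, with 26 and 27 summits in the first 200.0 kb at the end farthest from the J and C segments. The 500 kb beyond that end was dense too, with 72 summits (144 per Mb). Trb had 2 of 7 bins empty and 8 of its 17 summits in 1 bin. Tra/Trd had 10 of 18 empty and a longest gap between neighbouring summits of 459.6 kb.

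Neighbouring summits lay closer together in Igh than elsewhere on chromosome 12. The median spacing was 1091 bp (rest 1891), and 83.2% of neighbours were under 5 kb apart (rest 64.3%). In Igk the median was 3154 bp (rest 5999) and 57.7% were under 5 kb apart (rest 46.5%). Trb was the reverse of its chromosome, with a median of 24850 bp (rest 5878) and 18.8% (rest 46.8%). In Tra/Trd 56.4% were under 5 kb apart, against 85.0% on the rest of chromosome 14, most of whose peaks lie in its dense block.

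Joining peaks at most 2 kb apart gave 160 runs in Igh, of which 28 held 5 or more peaks and together 329 of the 578. The longest, at chr12:115612665-115651880, held 36 peaks with folds from 1.82 to 6.63, covered 52.1% of its 39.2 kb and took in Ighv1-69 and Ighv8-12. Just below it, a run of 34 peaks at chr12:115569760-115608734 took in Ighv1-66 and Ighv1-67, and a run of 27 at chr12:115791971-115828495 covered 70.7% of its bases around Ighv1-74 and Ighv8-14. Since so many Igh peaks lie within 2 kb of another, their number need not be a number of separate sites. The longest run of Igk held 14 peaks and contained no gene, that of Tra/Trd held 9 and contained none either, and that of Trb held 2.

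No constant gene of any locus had a summit inside it or within 1 kb, but they are few: windows as long as the 8 Igh genes with their flanks, placed 5 kb beyond either end, held a summit in 5 of 16 cases. The 8 of Igh were Igha, Ighe, Ighg2c, Ighg2b, Ighg1, Ighg3, Ighd and Ighm, which encode the tails of the IgA, IgE, IgG, IgD and IgM heavy chains. The 7 summits from Igha up to the first J segment sat in the gaps above these genes, and most of this stretch is gap. Switch regions, used for changing antibody class, lie in such gaps. Their positions were not in the sources used here, so whether any summit lies in one was not tested. Beside the peak of fold 6.51 above Ighg1, there was 1 of fold 3.68 whose summit was 2618 bp above Igha and 1 of fold 3.49, 2144 bp above Ighm. The gap above Ighg1 held a second, weaker peak, those above Ighg2c and Ighg2b held 2 and 1, none over 2.04, and those above Ighe, Ighg3 and Ighd held none. The kappa constant gene Igkc, both Trb constant genes (Trbc1 and Trbc2), Trac and Trdc were also without a summit within 1 kb.

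Of the joining segments, none of 4 in Igh and none of 14 in Trb had a summit inside or within 1 kb, while 1 of 5 in Igk and 1 of 62 in Tra/Trd did. Of the D segments, 8 of 20 in Igh did, through 9 distinct peaks and none inside a segment, and none of 2 in Trb or of 2 in Tra/Trd. These counts were near those of the moved windows, which held a summit in 32.5% of cases for Igh D segments (40% at the segments), none of 8 for Igh J, 3 of 10 for Igk J, none of 28 for Trb J and none of 124 for Tra/Trd J. The Igh D segments are short and repeated at regular distances, so a single peak can serve more than 1 of them.

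Igh V segments had summits far more often than those of the other loci. A summit lay inside or within 1 kb of 70 of 184 V segments in Igh (38.0%, Wilson 95% interval 31.3 to 45.2). Across the genes of chromosome 12 outside the loci the share was 22.1%, and across those of at most 2 kb, closer to V segments in length, it was 6.91%. In Igk it was 11 of 162 (6.79%, 3.83 to 11.8), against 49.1% of the other genes of chromosome 6 and 17.6% of the short ones. In Trb none of 35 V segments had one (upper limit 9.89%), nor any of its 53 segments. In Tra/Trd 6 of 136 did (4.41%, 2.04 to 9.29), against 23.3% of the other genes of chromosome 14 and 9.06% of the short ones.

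The surroundings of Igh V segments had summits often as well. Windows as long as each V segment with its flanks, beginning 5 kb beyond either end, held a summit in 30.7% of 368 cases, against 38.0% at the segments themselves. In Igk the moved windows had 10.2% against 6.79%, in Tra/Trd 3.68% against 4.41% and in Trb 4.29% against 0. Of the moved windows in Igh, 28.0% reached another V segment or its flanks. No test was made, since neighbouring V segments share peaks.

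Within 1 kb of a segment lay 129 of 578 peaks in Igh (22.3%), 16 of 202 in Igk (7.92%), none of 17 in Trb and 9 of 40 in Tra/Trd (22.5%). For V segments alone these shares can be set beside the bases of the V part that lie as near: 21.5% of summits on 16.9% of bases in Igh, 7.46% on 12.8% in Igk and 20.5% on 19.8% in Tra/Trd. In Igh 4 of the 13 peaks of fold 5 or more lay within 1 kb of a segment. In Igk none of its 5 did, and no peak within 1 kb of an Igk segment exceeded 2.45, while peaks farther off reached 8.58. Only 16 Igk peaks lay within 1 kb, against 186 farther off, so these differences say little. In Igk 142 of the 201 summits of the V part (70.7%) lay more than 5 kb from any V segment, where 51.0% of the bases lie.

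For their share of bases, summits in the V part of Igh were most frequent inside V segments and within 500 bp on the 5′ side. Inside V segments lay 29 of the 559 summits of the V part, 5.19% against 2.39% of the bases, a ratio of 2.17. From 1 to 500 bp on the 5′ side the ratio was 1.60 (33 summits), and on the 3′ side, where the recombination signal lies, 0.869 (18 summits). From 500 to 1000 bp the order turned round, with 0.801 (16 summits) on the 5′ side and 1.195 (24 summits) on the 3′ side. Farther than 5 kb on either side the ratio was 0.806. In bins of 250 bp the profile was uneven: over all 184 segments the last 250 bp inside held 22 summits and the 2 bins just 5′ 17 and 16, but the bin from 1250 to 1500 bp on the 5′ side held 19. The 5′ side is also where a V segment's leader exon and promoter lie. The gene table used has no strand, so the 5′ side was taken from the known order of the locus, with the constant genes at its lowest coordinates. Inside V segments the ratio was 0.922 in Igk and 3.06 in Tra/Trd, each from only 5 summits. Counting intervals were not computed for these ratios.

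Within Igh, V segments annotated as genes had a summit more often than those annotated as pseudogenes: 55 of 121 (45.5%, 36.9 to 54.3) against 15 of 63 (23.8%, 15.0 to 35.6). The moved windows held a summit in 29.3% of cases for genes and 33.3% for pseudogenes, and 22.3% and 38.9% of them reached another V segment or its flanks. The split was seen in the distal part, where 47 of 80 genes (58.8%) and 9 of 40 pseudogenes (22.5%) had a summit, and not nearer D, where 8 of 41 genes (19.5%) and 6 of 23 pseudogenes (26.1%) did. Within the single family Ighv1 it was 35 of 60 (58.3%, 45.7 to 69.9) against 8 of 32 (25%, 13.2 to 42.1). The division by annotation was made after the values had been seen and was not tested. In Igk the shares were 8 of 102 and 3 of 60, and in Tra/Trd 6 of 119 and 0 of 17.

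**Figure D4:**
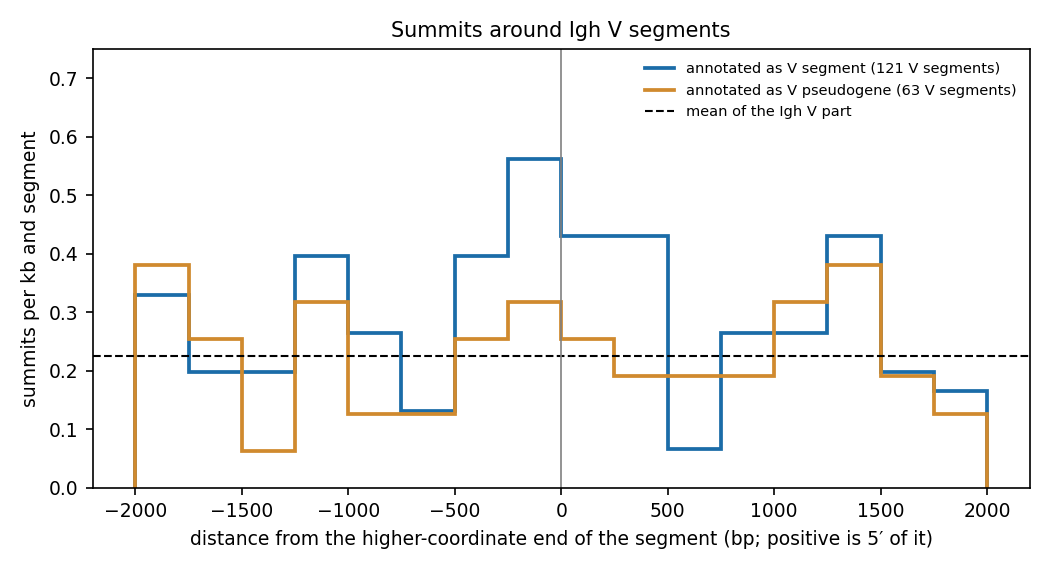
Summits per kb and segment in 250 bp bins around the higher-coordinate (5′) end of the 121 Igh V segments annotated as genes and the 63 annotated as pseudogenes, with the mean of the Igh V part as a dashed line. The tallest bin is that of the last 250 bp inside the genes, with 17 summits, followed by 3 bins of 13 on the 5′ side; the pseudogenes show 5 in the tallest bin of the genes.

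By family, all 6 Igh families of 5 or more V segments had members with a summit within 1 kb. Ighv1, the largest family, had 43 of 92 and Ighv8 10 of 16 (62.5%); both lie in the distal part. Ighv5 had 6 of 21, Ighv2 4 of 11, Ighv6 2 of 7 and Ighv3 1 of 8, with wide counting intervals. With the low shares of V segments in Igk (6.79%) and Tra/Trd (4.41%), families without any are common. Of the 12 Igk families of this size, 7 had no member with a summit, among them Igkv13 (0 of 19) and Igkv8 (0 of 13). Of the 11 Tra/Trd families, 5 had none, including Trav7 (0 of 14).

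**Figure D5:**
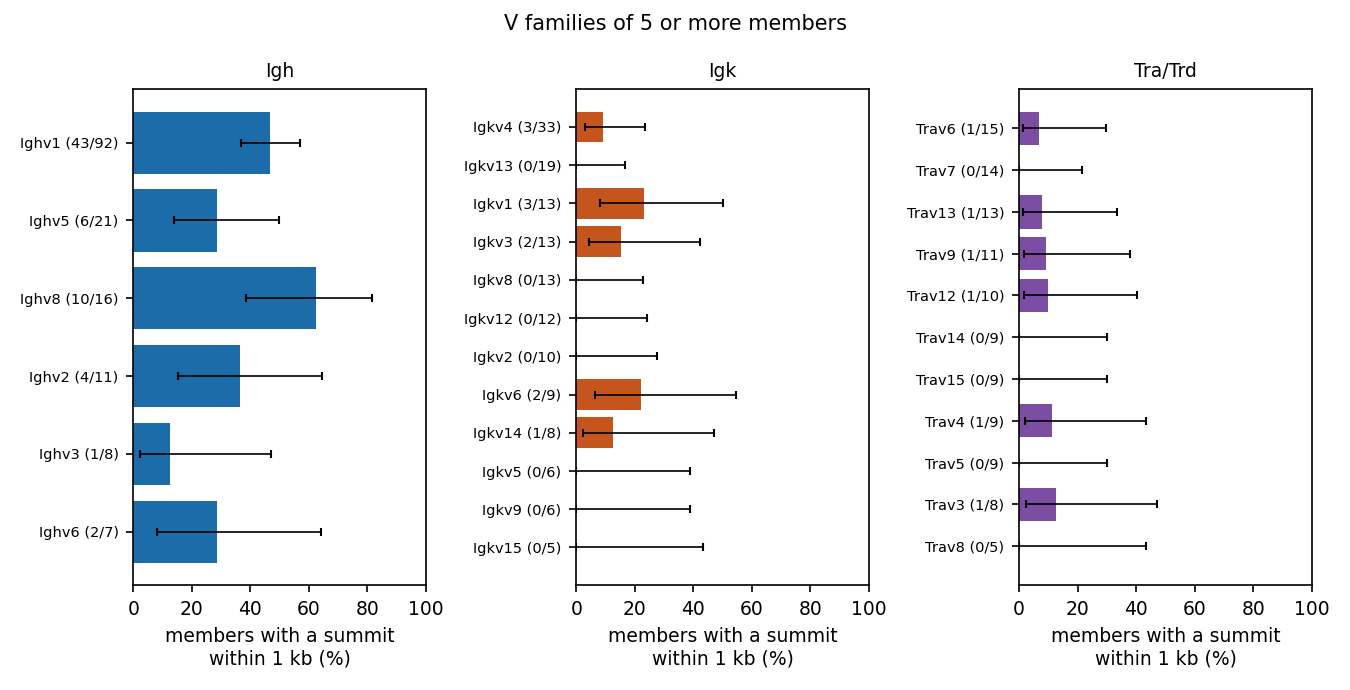
Percent of members with a summit inside or within 1 kb for each V family of 5 or more members in Igh, Igk and Tra/Trd, with 95% Wilson intervals and counts in the labels. Igh families run from 1 of 8 to 10 of 16, and those of Igk and Tra/Trd lie below 25%.

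In Igh the segments with the most summits were not those with the strongest. They were Ighv1-32 with 6 summits (highest fold 2.22), Ighv1-27 with 5 (2.54) and Ighv8-11 with 4 (4.67), the first 2 of them pseudogenes inside runs of weak peaks. Others, such as Ighv1-59 (3.81), also had 4. The 3 V segments nearest to D without a summit were Ighv5-1, Ighv2-1 and Ighv5-2. In Igk the leaders, which include the strongest peak within 1 kb of any of its segments, were Igkv1-136 with 4 (2.36), Igkv14-134-1 with 2 (2.45) and Igkv1-135 with 1 (2.31), all in the dense end of the locus. Other Igk V segments had 1 as well, among them Igkv3-10 and Igkv3-12 at the other end. Igkv2-137, Igkv17-134 and Igkv1-133, in the dense end, had none. In Tra/Trd the leaders were Trav3-3 with 3 (2.31, also the strongest near a segment), Trav9-4 with 1 (2.22) and Trav4-3 with 1 (2.09), and Trav1, Trav2 and Trav3-1 had none. In Trb the first V segments Trbv1, Trbv2 and Trbv3 had none.

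Genes of other kinds inside the loci had summits about as often as their surroundings. Of the Igh genes that are not receptor segments, mostly pseudogenes and non-coding RNAs, 14 of 35 (40%) had a summit inside or within 1 kb, close to the 38.0% of V segments and under the 50% of their moved windows. In Igk 5 of 30 and in Trb 3 of 18 did (16.7% in both), with moved windows at 16.7% and 13.9%, next to the 17.6% of short genes of chromosome 6. The Trb genes are longer than those short ones, with a median of 3749 bp. Of chromosome 6 genes of any length 49.1% had a summit. The 2 protein-coding genes of Igh, Adam6a and Adam6b, which encode sperm proteins, had none. In Trb 2 of 13 protein-coding genes did, Prss58 (fold 1.86), a serine protease gene, and 1700074P13Rik (1.82), and the trypsin genes Prss1, Prss2, Prss3 and Try4 had none. In Tra/Trd none of the 19 other genes, the olfactory receptor genes Olfr1507, Olfr1508 and Olfr1509 among them, had a summit, and 5.26% of their moved windows held one.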

How the data were processed

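The tools behind the authors' peak list were Trim Galore 0.4.2, Bowtie2 2.2.9, SAMtools 1.4 and MACS2, with build mm10, per the submitters' processing notes. Not given in the sources used here were their settings and the handling of reads with several matches. Per the labels, 1 deposited list belongs to all 7 ChIP-seq libraries; how they were combined is not stated. Its values are the authors': a fold enrichment, −log10 p and −log10 q values and an integer score per peak. How the input enters the fold is not given in the sources used here. The lowest −log10 q is 1.31.

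The p-values were not used. Summits were assigned to the loci by position. Members, gene lists and alternatives were chosen with earlier results of these data known. Segments came from the RefSeq gene table of GRCm38.p6, the build of mm10, without 340 entries placed below 3 Mb, where no peak lies. A segment had a peak when a summit lay inside it or within 1 kb. Density ratios have exact binomial and shares Wilson 95% intervals, which cover counting error only, because reads and peaks are not independent. With 1 list and no value per library no test was run. Promoters were aligned locally (match 2, mismatch -3, gap -4). The counting steps were tested on simulated data. Python 3.11.15, numpy 2.4.6, pandas 2.3.3 and scipy 1.17.1 were used.

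Named were, per locus, the 5 peaks of highest fold, all constant genes, the 3 segments with most summits, the first 3 V segments in genome order without one, and protein-coding genes with one. Segments tied with the 3 on number of summits were not all named. Of the leading Igk peaks, 1 is not reported here. The alternatives were stricter peak cutoffs, interval overlap, merged peaks, other backgrounds and other windows.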

Additional observations from a re-analysis of the deposited data

How the results depend on the processing

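Igh stayed above its chromosome under every alternative for density: the ratio was 11.2 for peaks with −log10 q of at least 4, 10.2 for peaks at or above the median fold, 6.46 with peaks within 1 kb merged, 19 without 1 Mb windows of 30 or more peaks in the rest, 19.7 against the 5 Mb on either side and 17.2 against the median window, an alternative added after seeing the data. For Igk the same alternatives gave 1.54, 1.38, 0.968 (below 1), 3.57 and, for the median window, 1.31. The Trb ratio of 0.449 became 1.44 without the dense windows. It stayed below 1 under the other alternatives, with 0.58 against the 5 Mb on either side and 0.548 against the median window. On chromosome 6 the cutoff for dense windows lies below the mean. The 3.57 of Igk and the 1.44 of Trb are therefore set against sparse windows alone. The Tra/Trd ratio of 0.477 became 0.255 at −log10 q of at least 4 and 0.845 with merged peaks, and turned round to 2.07 without the dense windows, 1.52 against the flanks and 2.10 against the median window. In the last 3 the dense block of chromosome 14 drops out or weighs less. The cause of the other moves was not tested.

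With −log10 q in place of fold, the ratio of medians was 1.29 in Igh, 0.782 in Trb and 0.610 in Tra/Trd. The Tra/Trd ratio is again set against a rest that mostly describes the dense block. Neighbouring summits under 20 kb apart made up 94.6% in Igh (rest 74.5%) and 79.1% in Igk (rest 75.8%). The share of Igh V segments with a summit was 27.2% at −log10 q of at least 4 (other genes of chromosome 12, of any length, 12.8%). It was 29.9% for peaks at or above the median fold (other genes 15.6%) and 47.3% with a window of 2 kb (other genes 23.4%). For Igk V segments the share was 1.85% under either stricter cutoff, where the other genes of chromosome 6 had 23.55% and 30.95%. For Tra/Trd it was 1.47% at −log10 q of at least 4, against 16.4% of the other genes of chromosome 14. Another 36 combinations of result and alternative moved by less than counting error.

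No paired analysis was possible because the single list has no column per library. With no counts per library, depth, replicate error and the sampling behind single peaks of fold near 2 cannot be given. Leaving out a replicate was not possible for the same reason.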
